A study of Mus musculus with 20 samples.

Results

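The autophagy genes described here are 42 genes named for their place in macroautophagy, found by matching the Ensembl IDs of the count table to mouse gene symbols. All 42 were in the table of 49671 genes, and all 42 were among the 13290 genes with enough counts to test. They were followed in cultured mouse T cells in 4 groups of 5 libraries: CD8 week 4, CD8 week 1, CD4 week 3 and CD4 week 1. The cells had been taken from spleen and inguinal lymph nodes, stimulated with antibodies against CD3 and CD28 in the presence of IL-2 at 1 ng/mL, with expansion afterwards in IL-7 at 10 ng/mL and IL-15 at 50 ng/mL. Expansion lasted 25 days in the CD8 week 4 group and 4 days in the CD8 week 1 group, 18 days in the CD4 week 3 group and 4 days in the CD4 week 1 group. Every group was sorted on surface markers, CD44 among them, to a purity above 97%, so the values describe the sorted cells and not the whole culture. The sources were polyclonal cells of albino B6 mice and 2 T cell receptor transgenic strains, Marilyn-BLITC and MataHari-BLITC, and the labels do not say which library came from which. They also name no animal or culture for a library, so the p-values rest on the spread among these libraries, and that spread may be technical.

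Macroautophagy encloses cytoplasm in a double membrane, the autophagosome, and delivers it to lysosomes. The ULK kinase complex starts the process, the VPS34 lipid kinase complex marks the growing membrane with PI3P, and lipid carriers such as ATG2 enlarge it. Conjugation enzymes then attach small ubiquitin-like proteins of the ATG8 family to the membrane, where cargo receptors dock. In T cells, autophagy genes are known from knockout mice to be needed for the survival of memory cells. Transcript levels do not measure the flow of material through the pathway, which was not assayed here.

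The libraries held 18.29 to 28.34 M counted reads in CD8 week 4, 13.26 to 28.03 M in CD8 week 1, 22.46 to 24.03 M in CD4 week 3 and 19.64 to 24.22 M in CD4 week 1. Cd8a and Cd8b1 together stood at 988 to 2680 CPM (counts scaled to library size) in CD8 week 4 and 1240 to 2100 CPM in CD8 week 1, against 1.6 to 30.7 CPM in CD4 week 3 and 4.12 to 10.1 CPM in CD4 week 1. Cd4 averaged 618 CPM in CD4 week 3 and 737 CPM in CD4 week 1, and it was at 0 in every CD8 week 4 library. Cd44, a gene behind the sort, was present in all groups. Among markers of other cells, the B cell list was carried by Ighm (means of 157 to 414 CPM by group) with Ms4a1 and Pax5 at or near 0. The natural killer list stood at 195 to 388 CPM in CD8 week 4, 215 to 373 CPM in CD8 week 1, 1.12 to 12.3 CPM in CD4 week 3 and 0.471 to 28 CPM in CD4 week 1. Most of it was Eomes, which CD8 T cells also express. The numbers in the titles of the CD8 libraries fall into 2 separate ranges, range A (replicates 1 to 3 of each week) and range B (replicates 4 and 5), while the CD4 titles have higher numbers of their own. Cell type and title series therefore cannot be told apart in any comparison of CD8 with CD4 cells. The labels give no strain for a library, so the part of strain or transgenic receptor in these comparisons was not tested.

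Most of the machinery was expressed throughout. Per length, 37 of the 42 genes averaged at least 10 TPM (counts divided by exon length and scaled to 1 total in every library) over the 20 libraries, and the median gene averaged 21.8 TPM. The highest level was that of the ATG8 family gene Gabarap, at 247 TPM. It was followed by the cargo receptor Sqstm1, which encodes p62, at 156 TPM, and by the mitophagy receptors Bnip3l at 115 TPM and Bnip3 at 111 TPM. The lowest levels were those of the ligase gene Atg10 at 9.75 TPM, Map1lc3a at 7.14 TPM, the cargo receptor Optn at 3.06 TPM, the protease gene Atg4c at 2.18 TPM and the PI3P-binding gene Wipi1 at 1.47 TPM. Within the ATG8 family Gabarap thus stood above Gabarapl1 (60.0 TPM), Gabarapl2 (32.0 TPM), Map1lc3b (26.8 TPM) and Map1lc3a (7.14 TPM). The order below Gabarap depends on the exon lengths used, 7517 bases for Map1lc3b and 2325 for Gabarapl2. Before division by length, Map1lc3b lay above Gabarapl2 in every group (group means of 50.5 to 73.9 against 18.7 to 26.9 CPM). Among the genes of 1 role the levels ran closer in the initiation complex, between 16.3 TPM for Rb1cc1 and 49.3 TPM for Atg13.

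The first comparison asked what happened to the pathway in CD8 cells over prolonged expansion. Of the 42 genes, 12 were higher at week 4, 1 was lower and 29 did not pass (quasi-likelihood test of edgeR, at a p under 0.05 after Benjamini-Hochberg adjustment). Of all genes tested, 17.1% were higher and 16.4% lower. The members' median log2 fold change was 0.12, against 0.0293 for all genes tested, and 30 of the 42 values were positive. The rises were at most 1.69-fold. They included 2 of 5 genes of the initiation complex, 2 of 6 of the VPS34 complex and 3 of 6 of the lipid and PI3P group. Among the later steps, 1 of 7 conjugation genes, 3 of 5 ATG8 genes and 1 of 4 cargo receptors were higher. None of the 4 ATG4 proteases, 3 mitophagy receptors or 2 transcriptional regulators passed in edgeR, DESeq2 or limma-voom, and none had an unadjusted p under 0.05 in edgeR. The 2 gamma-delta T cell markers summed to 30.7 to 54.9 CPM in CD8 week 4 and 13.4 to 23.9 CPM in CD8 week 1. In CD4 cells the sums were 42.7 to 77.9 CPM at week 3 and 8.36 to 33.2 CPM at week 1. Most of the rise was in Tcrg-C1, with means of 33.7 against 10.4 CPM in CD8 and 58 against 16.6 CPM in CD4 cells. Trdc averaged 9.9 against 7.03 CPM in CD8 and 6.97 against 4.34 CPM in CD4 cells. The part of these markers in the culture results was not tested. In bulk samples a lower share of cells with a transcript and less of it per cell cannot be told apart.

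**Figure D1:**
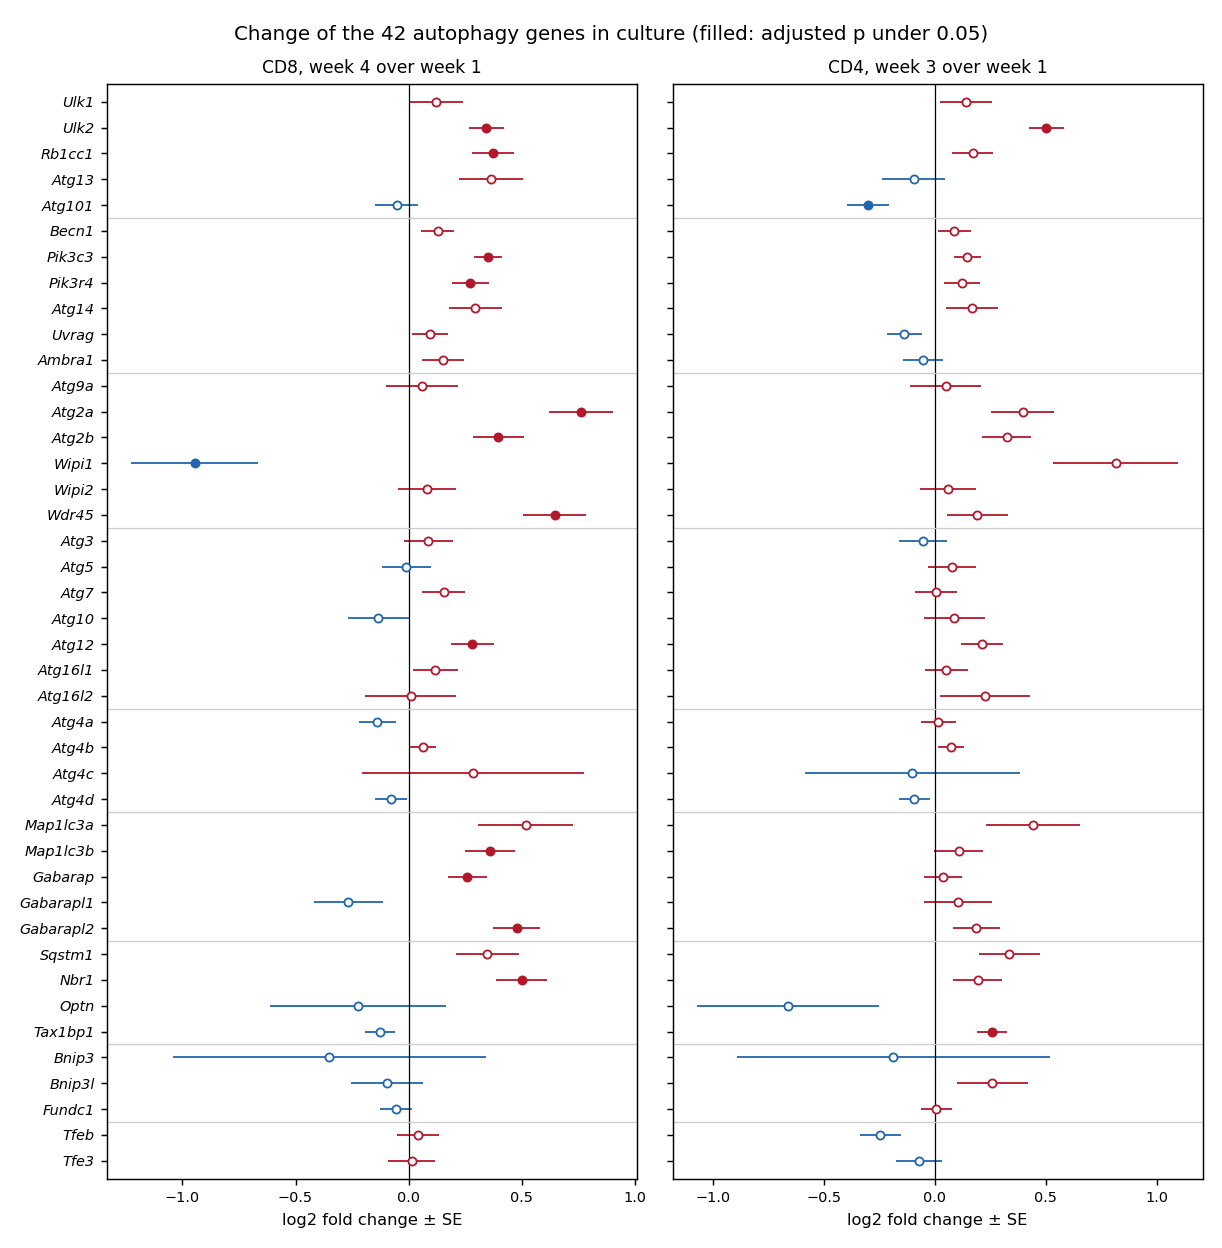
Log2 fold change (horizontal axis, ± SE) of the 42 genes, in rows ordered by role and separated by grey lines, for CD8 week 4 over week 1 (left) and CD4 week 3 over week 1 (right), from 5 libraries a group. Filled points passed at an adjusted p under 0.05 (12 above 0 and 1 below in CD8; 2 above and 1 below in CD4), red lies above 0 and blue below.

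Of the genes that start the process, the kinase gene Ulk2 (ENSMUSG00000004798, GRCm38 chr11:61775649-61855073, minus strand) rose. Its libraries held 80.4, 77.6, 78.5, 80.6 and 76.6 CPM at CD8 week 4, against 63.1, 67.8, 57.2, 60.1 and 62.0 CPM at CD8 week 1. Every week 4 library lay above every week 1 library, and the log2 fold change was 0.34 (SE 0.08, adjusted p = 0.0034). Rb1cc1, the scaffold of the ULK complex, rose as well, at 75.8 ± 3.76 against 58.5 ± 2.55 CPM (SD, n = 5 each; adjusted p = 0.00555), without overlap. The adaptor gene Atg13 was at 61.3 ± 3.19 CPM at week 4 and 47.6 ± 2.14 CPM at week 1. Its libraries did not overlap either, and it did not pass (log2 fold change 0.36, adjusted p = 0.0537). Ulk1, the kinase best known from this complex, was at 43.0 ± 3.16 against 39.6 ± 5.38 CPM (adjusted p = 0.454), with overlapping libraries.

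In the VPS34 complex, which makes PI3P, the catalytic subunit Pik3c3 had the smallest adjusted p of the members in this comparison. It measured 80.3, 79.8, 83.2, 80.6 and 77.8 CPM at CD8 week 4, against 61.1, 62.5, 66.1, 64.8 and 60.3 CPM at CD8 week 1. All week 4 libraries lay well above all week 1 libraries, and the log2 fold change was 0.35 (SE 0.06, adjusted p = 0.000651). Pik3r4, its regulatory subunit, was higher too (log2 0.27, adjusted p = 0.0163), again without overlap. The adaptors Becn1, Atg14, Uvrag and Ambra1 had positive values between 0.09 and 0.29 and did not pass.

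Atg2a rose most of the members. It encodes a lipid carrier between the endoplasmic reticulum and the autophagosome (ENSMUSG00000024773, GRCm38 chr19:6241668-6262335, plus strand). Its libraries held 51.7, 53.3, 40.9, 57.1 and 57.5 CPM at CD8 week 4, against 29.8, 31.6, 28.8, 32.2 and 31.2 CPM at CD8 week 1. The lowest week 4 library, replicate 3, still lay above all of week 1, and the gene was 1.69-fold higher (log2 0.76, SE 0.14, adjusted p = 0.000924). Its paralog Atg2b rose as well (log2 0.40, adjusted p = 0.012), but fitted alone it was at 0.54 in range A (adjusted p = 0.0876) and 0.15 in range B (adjusted p = 0.0776). Within title ranges A and B, each fitted alone, Atg2a had log2 fold changes of 0.68 and 0.83. Wdr45, which encodes the PI3P-binding protein WIPI4, a partner of ATG2 (ENSMUSG00000039382, GRCm38 chrX:7714333-7728206, plus strand), rose too. It measured 22.5, 19.04, 19.4, 21.03 and 19.9 CPM at CD8 week 4, against 12.4, 13.6, 13.4, 13.4 and 12.4 CPM at CD8 week 1. The groups were far apart relative to their spread (log2 0.65, SE 0.14, adjusted p = 0.00229). Wdr45 shares 24.7% of its exon bases, and Atg9a 31.8%, with another annotated gene on the same strand, and reads there were not counted.

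Wipi1, another PI3P-binding gene of this group, was the member that fell. It is a low gene, at 1.29, 2.20, 1.76, 1.97 and 0.70 CPM in CD8 week 4, against 1.66, 3.81, 3.63, 3.43 and 2.63 CPM in CD8 week 1. Week 1 replicate 1 lay among the week 4 libraries, so the groups overlapped. The log2 fold change was -0.94 (SE 0.28, adjusted p = 0.0155). Wipi2, its paralog, was at 60.3 ± 5.18 against 57.1 ± 11.1 CPM and did not pass (adjusted p = 0.657), and Atg9a, the scramblase that seeds the membrane, did not pass either (adjusted p = 0.798).

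**Figure D2:**
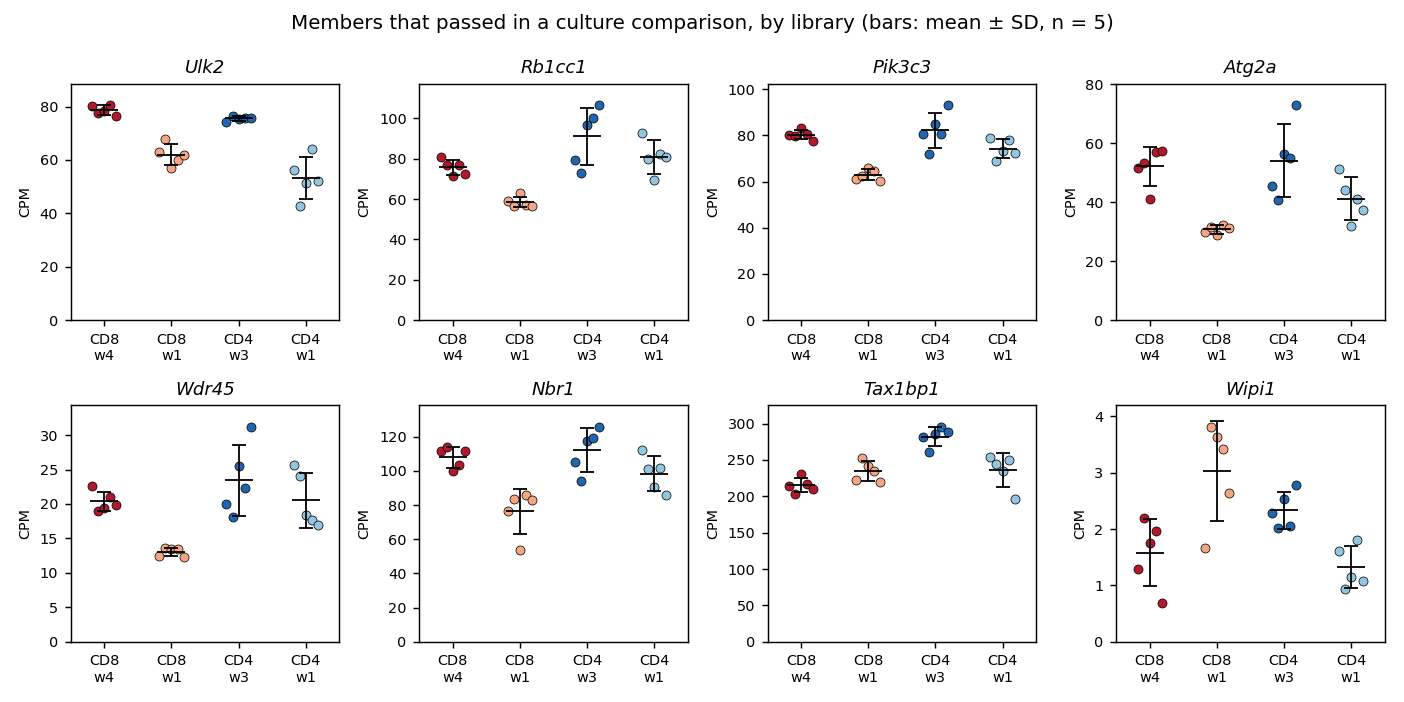
CPM (vertical axes, from 0) of 8 genes in each library of the 4 groups, with bars for the mean ± SD of 5 libraries. Ulk2, Rb1cc1, Pik3c3, Atg2a, Wdr45 and Nbr1 lie higher in all 5 CD8 week 4 libraries than in CD8 week 1, Tax1bp1 lies higher in CD4 week 3 than in CD4 week 1, and Wipi1 lies lower in CD8 week 4 than in CD8 week 1 on average (1.58 against 3.03 CPM) and higher in CD4 week 3 than in CD4 week 1 (2.33 against 1.32 CPM).

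At the conjugation step, only Atg12, the ubiquitin-like partner of ATG5, passed among 7 genes, at 62.0 ± 2.80 against 51.0 ± 3.62 CPM (adjusted p = 0.0303). The call was lost in 9 of 24 alternative settings. The E1-like Atg7, the E2-like Atg3 and Atg10, and Atg5, Atg16l1 and Atg16l2 ran between -0.13 and 0.16 on the log2 scale. The 4 proteases of the ATG4 family, which trim ATG8 proteins, ran between -0.14 and 0.28. The highest of these values, that of Atg4c, had an SE of 0.49.

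The cargo receptor Nbr1 rose, a protein that carries ubiquitinated cargo to ATG8 proteins. It stood at 111, 114, 99.8, 103 and 112 CPM in CD8 week 4, against 76.7, 83.2, 53.5, 85.6 and 82.7 CPM in CD8 week 1. Week 1 replicate 3 was far below its group, and all week 4 libraries lay above all of week 1 (log2 0.50, SE 0.11, adjusted p = 0.00294). Sqstm1 was at 191 ± 40.4 against 150 ± 18.0 CPM and did not pass (adjusted p = 0.0615), with week 4 replicates 1 and 2 the highest. Tax1bp1 (-0.13, adjusted p = 0.161) and Optn (-0.22, adjusted p = 0.688) did not pass.

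The number of members that passed within CD8 cells differed between fits, and so did the share of all genes. When the model included the range, the counts stayed at 12 higher and 1 lower. Range A alone, with 3 libraries a group, gave 1 higher and 0 lower, where 1.85% of all genes were higher and 2.31% lower. Range B alone, with 2 a group, gave 15 higher and 4 lower, where 24.1% of all genes were higher and 25.1% lower. With the CD4 libraries kept in the fit to share the estimate of the spread, each range gave 4 higher and 0 lower. Of all genes, 4.49% were then higher and 3.39% lower in range A, and 10.2% higher and 9.04% lower in range B. Pik3c3 and Atg2a passed in both of these, with Atg2b and Nbr1 in range A and Becn1 and Gabarapl2 in range B. In log2 fold change, range A alone gave Pik3c3 0.34, Ulk2 0.32 and Wdr45 0.62, and range B alone gave them 0.32, 0.35 and 0.64. Those of Nbr1 (0.59 in range A and 0.33 in range B) and Atg2b lay further apart.

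The same question in CD4 cells compared week 3 with week 1. Here 2 members were higher, 1 was lower and 39 did not pass, while 7.67% of all genes tested were higher and 8.8% lower. The median log2 fold change of the members was 0.09, against 0.00854 for all genes, and 31 of 42 values were positive. Ulk2 rose again, at 74.3, 76.6, 75.3, 75.9 and 75.7 CPM in CD4 week 3, against 56.4, 42.6, 51.5, 64.2 and 52.3 CPM in CD4 week 1. The highest week 3 library was 1.03-fold the lowest, and all lay above all of week 1 (log2 0.50, SE 0.08, adjusted p = 0.000801). Ulk2 passed in all 18 alternative settings of the CD4 comparison.

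Tax1bp1, a receptor for ubiquitinated cargo (ENSMUSG00000004535, GRCm38 chr6:52713729-52766780, plus strand), was the other gene that rose in CD4 cells. It held 281, 260.2, 286, 295 and 288 CPM in CD4 week 3, against 253, 245, 235, 250.4 and 196 CPM in CD4 week 1. The groups did not overlap (log2 0.26, SE 0.07, adjusted p = 0.017), but the call was lost without CD4 week 3 replicate 4 and with only CD4 libraries in the fit. Atg101, a subunit that stabilises ATG13, fell. It held 16.1, 17.3, 20.4, 18.4 and 19.9 CPM in CD4 week 3, against 23.1, 24.6, 22.2, 22.3 and 21.5 CPM in CD4 week 1. No library overlapped (log2 -0.30, SE 0.09, adjusted p = 0.0362), and the call was lost in 8 of 18 alternative settings.

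CD4 week 3 replicate 2 lay nearest to week 1 in several members, and the count depended on it. Without that library 9 members were higher and 1 lower: Rb1cc1, Pik3c3, Atg2a, Atg2b, Wipi1, Map1lc3a and Sqstm1 were then higher beside Ulk2 and Tax1bp1, and Tfeb was lower. The share of all genes was larger in that fit too, with 12.5% higher and 14.6% lower. Without CD4 week 1 replicate 1 the number of members higher was 4 (7.13% of all genes), and without CD4 week 3 replicate 4 it was 1 (4.27% of all genes). In the full set Atg2a was at 45.4, 40.7, 56.4, 55.0 and 72.9 CPM in CD4 week 3, against 51.3, 44.0, 32.0, 40.9 and 37.4 CPM in CD4 week 1. Its libraries overlapped, and its log2 fold change of 0.39 (SE 0.14) did not pass (adjusted p = 0.0613). The hemoglobin gene Hba-a1, a red cell marker, was counted at 0.133 to 18.8 CPM in CD4 week 3 and 0.257 to 2.16 CPM in CD4 week 1, with Hbb-bt, Hba-a2, Alas2 and Slc4a1 at 0 in both, and its part in these results was not tested.

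Whether the members changed differently in the 2 cell types was tested as an interaction, the CD8 change minus the CD4 change, although expansion ended at 25 days in CD8 and 18 days in CD4 cells. None of the 42 was higher in edgeR's quasi-likelihood test (0.248% of all genes were) and 1 was lower (0.406% of all genes were). At an unadjusted p under 0.05 there were 4 higher and 2 lower, and neither DESeq2 nor limma-voom called any higher. The gene called was Wipi1, whose difference was -1.76 (SE 0.40, adjusted p = 0.047). Its CD4 libraries held 2.28, 2.02, 2.53, 2.05 and 2.79 CPM at week 3, against 1.62, 0.94, 1.15, 1.81 and 1.08 CPM at week 1. They did not overlap, yet the CD4 change did not pass (log2 0.81, adjusted p = 0.0545). The interaction call was lost in 19 of 27 alternative settings, with adjusted p between 0.00194 and 0.103. For Tax1bp1 the difference was -0.38 (SE 0.10, adjusted p = 0.0773), and for the genes that rose in CD8 cells it did not pass: Pik3c3 (0.20, adjusted p = 0.361), Atg2a (0.37, 0.506), Wdr45 (0.45, 0.357), Gabarapl2 (0.29, 0.466) and Nbr1 (0.31, 0.469). The larger number of calls in CD8 cells was thus not shown to be a larger change.

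The ATG8 family is the set of proteins that are lipidated onto the autophagosome, and its 5 genes did not move as 1 block. In CD8 cells Gabarapl2 (ENSMUSG00000031950, GRCm38 chr8:111940703-111953612, plus strand) rose to 27.7, 22.1, 27.0, 28.7 and 24.5 CPM at week 4, against 16.7, 16.8, 22.9, 17.9 and 19.3 CPM at week 1. Week 1 replicate 3 overlapped with the lowest week 4 library (log2 0.48, SE 0.10, adjusted p = 0.00256). Map1lc3b, which encodes the usual autophagosome marker LC3B, rose to 62.9, 63.6, 57.6, 71.4 and 68.9 CPM at CD8 week 4, against 45.0, 49.9, 58.7, 49.4 and 49.5 CPM at CD8 week 1. Only week 1 replicate 3 reached into the week 4 range (log2 0.36, SE 0.11, adjusted p = 0.0181).

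Gabarap rose to 181, 188, 166, 149 and 187 CPM at CD8 week 4, against 140.4, 163, 159, 132 and 134 CPM at CD8 week 1. Its groups overlapped, with week 4 replicate 4 below 2 week 1 libraries, and the call (log2 0.26, SE 0.09, adjusted p = 0.0285) was lost in 13 of 24 alternative settings. Map1lc3a, a low gene, was at 4.04, 3.60, 3.16, 4.75 and 3.53 CPM at CD8 week 4, against 2.23, 2.92, 2.93, 2.62 and 2.63 CPM at CD8 week 1. All week 4 libraries were the higher ones, but it did not pass (log2 0.52, SE 0.21, adjusted p = 0.0646). Gabarapl1 had the opposite sign, at 55.3, 53.7, 41.5, 41.7 and 43.4 CPM against 56.6, 55.4, 61.7, 54.6 and 55.2 CPM. Week 4 replicate 1 lay among the week 1 libraries, replicate 2 just below them and the other 3 further below, and the gene did not pass (log2 -0.27, adjusted p = 0.187). Gabarapl1 was called lower in 2 of 24 alternative settings, with only CD8 libraries in the fit and in range B alone.

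In CD4 cells none of the 5 ATG8 genes passed in edgeR's quasi-likelihood test, with log2 fold changes of 0.44 for Map1lc3a, 0.11 for Map1lc3b, 0.04 for Gabarap, 0.11 for Gabarapl1 and 0.19 for Gabarapl2 (adjusted p 0.157 to 0.801). None had an unadjusted p under 0.05 in edgeR, and none passed in DESeq2 or limma-voom. The regulators Tfeb and Tfe3, which bind promoters of lysosomal and autophagy genes, also did not pass in either culture comparison in edgeR, while DESeq2 called Tfeb lower in CD4 week 3. Tfeb was at 24.7 ± 2.39 against 23.9 ± 2.53 CPM in CD8 cells (log2 0.04, adjusted p = 0.752) and at 31.5 ± 2.83 against 37.3 ± 3.11 CPM in CD4 cells (log2 -0.25, adjusted p = 0.0741). Tfe3 was at 30.9 ± 2.40 against 30.7 ± 3.27 CPM in CD8 cells (adjusted p = 0.933) and at 33.4 ± 1.87 against 35.1 ± 5.77 CPM in CD4 cells (adjusted p = 0.671).

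**Figure D3:**
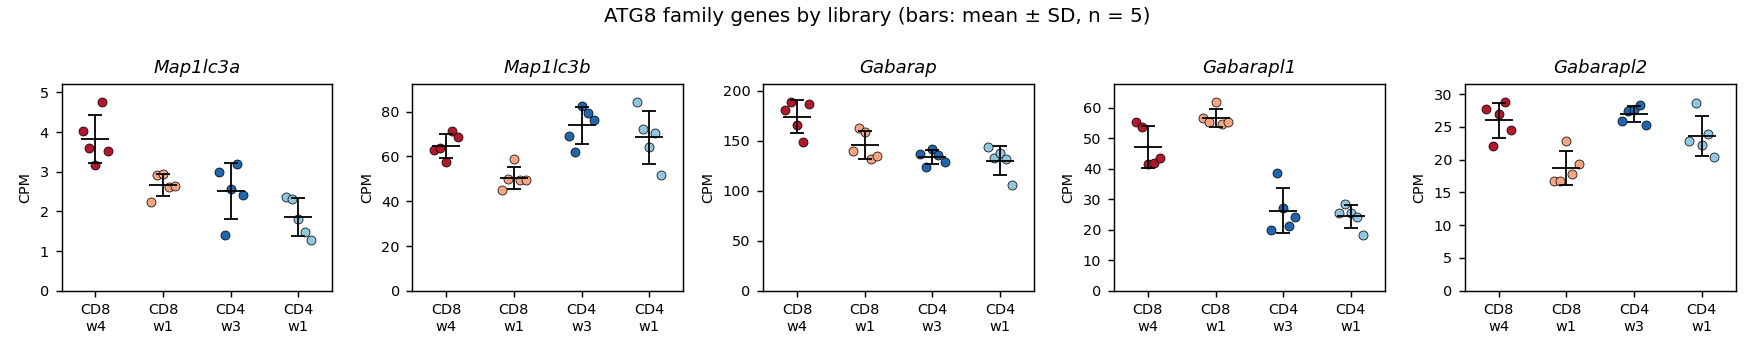
CPM (vertical axes, from 0) of the 5 ATG8 family genes in each library, with bars for the mean ± SD of 5 libraries. Gabarapl2, Map1lc3b and Gabarap passed as higher in CD8 week 4 than in CD8 week 1, and Gabarapl1 lies higher in both CD8 groups than in both CD4 groups.

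CD8 and CD4 cells were then set against each other at the matched time, week 1. Of the members 7 were higher in CD8 cells, where 19.1% of all genes were, and 16 were lower, where 19% of all genes were. The median log2 fold change was -0.18. All but 1 of the initiation genes were lower in CD8 cells, and so were 4 of 6 in the VPS34 group. For the long-term cells, which differ in week as well as in cell type, 5 members were higher in CD8 week 4 (17.7% of all genes) and 6 lower (15% of all genes), with a median of -0.05. The dendritic cell list summed to 2.29 to 36.4 CPM in CD8 week 4 and 1.55 to 26 CPM in CD8 week 1. It summed to 0 to 0.394 CPM in CD4 week 3 and 0.0428 to 0.125 CPM in CD4 week 1. In these groups 2, 3, 2 and 2 of its 4 genes were at 0 throughout. In CD8 cells the list was carried by Itgax (means of 16.9 CPM at week 4 and 10.7 CPM at week 1), with Flt3 and Siglech at 0. The part of this list was not tested. These comparisons use the same libraries as the culture comparisons and are not independent of them.

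**Figure D4:**
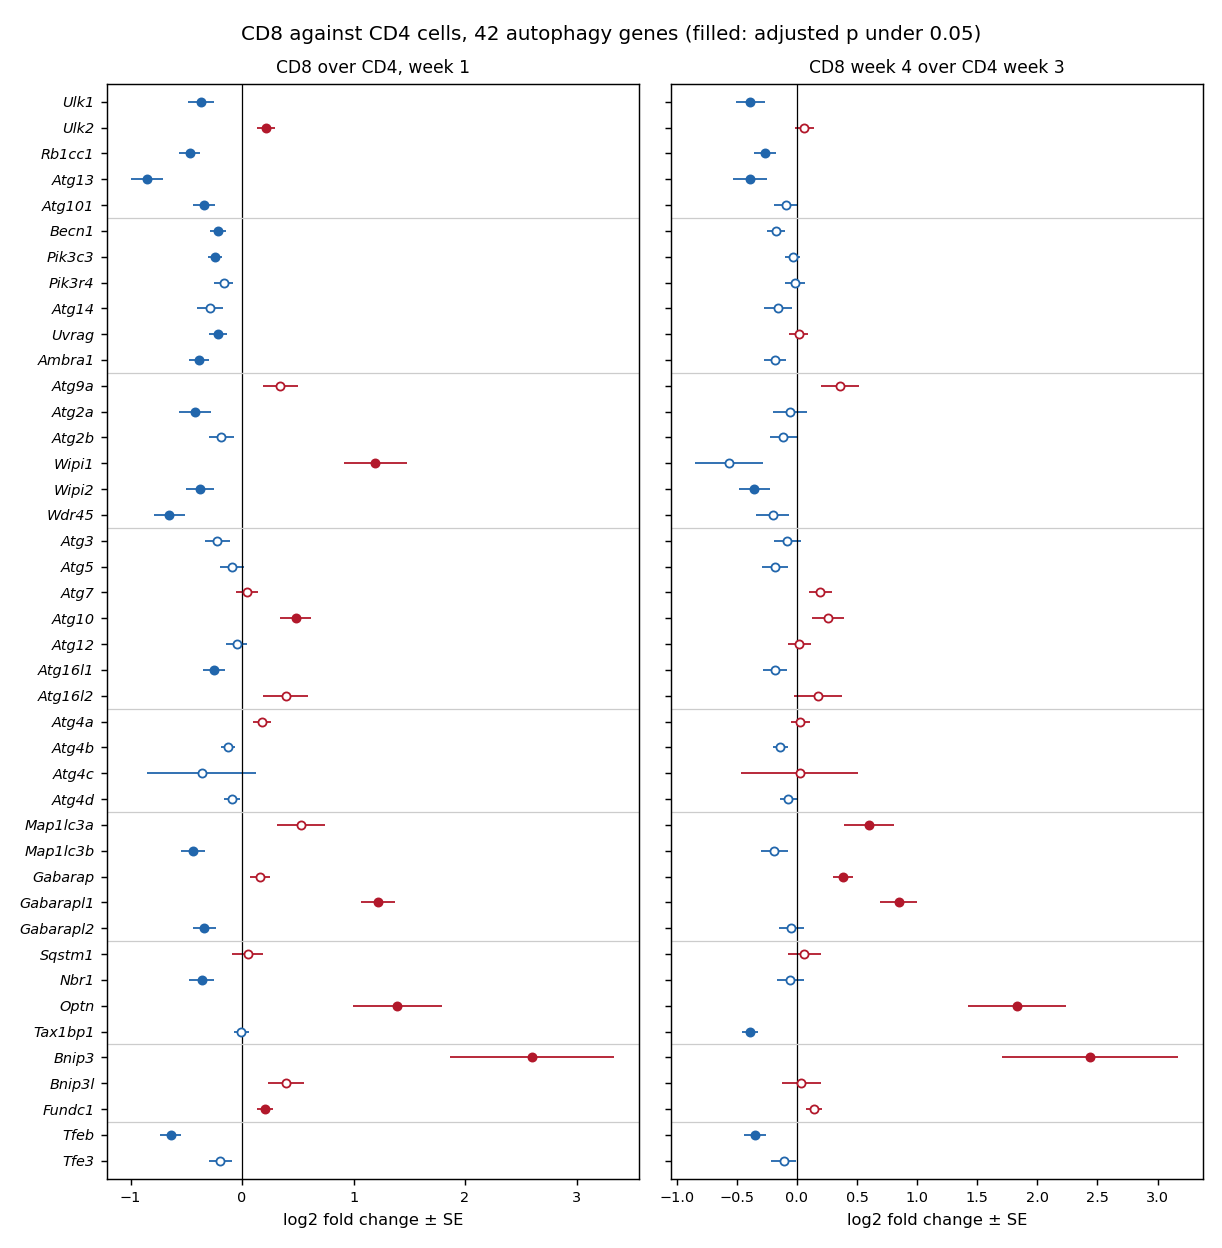
Log2 fold change (horizontal axis, ± SE) of the 42 genes in CD8 over CD4 cells at week 1 (left) and of CD8 week 4 over CD4 week 3 (right), from 5 libraries a group, in rows ordered by role. Filled points passed at an adjusted p under 0.05 (7 above 0 and 16 below on the left; 5 above and 6 below on the right), and Bnip3, Optn and Gabarapl1 lie above 0 and passed in both panels.

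Gabarapl1 had the smallest adjusted p of the members that were higher in CD8 cells (ENSMUSG00000030161, GRCm38 chr6:129533160-129542346, plus strand). At week 1 its CD8 libraries held 56.6, 55.4, 61.7, 54.6 and 55.2 CPM, against 25.6, 28.5, 25.5, 24.1 and 18.1 CPM in the CD4 libraries. The groups were far apart (2.33-fold, log2 1.22, SE 0.16, adjusted p = 1.06e-05). In the long-term cells the values were 55.3, 53.7, 41.5, 41.7 and 43.4 CPM in CD8 week 4, against 19.97, 38.5, 27.2, 21.1 and 24.3 CPM in CD4 week 3, still without overlap (log2 0.85, SE 0.15, adjusted p = 0.000378). Gabarap differed in the long-term cells (174 ± 16.7 against 134 ± 7.13 CPM, adjusted p = 0.00249) and did not pass at week 1 (adjusted p = 0.153). Of the other family genes, Map1lc3b (log2 -0.44, adjusted p = 0.00428) and Gabarapl2 (-0.34, adjusted p = 0.0159) were lower in CD8 cells at week 1. Map1lc3a had a positive value at week 1 and did not pass (log2 0.53, adjusted p = 0.0593). In the long-term cells it was higher in CD8 cells, with overlapping libraries (log2 0.60, adjusted p = 0.0335).

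The 250 bases before the RefSeq start of Gabarapl1 and Gabarapl2 are shown because the 2 genes differed in opposite directions between the cell types at week 1 (RefSeq, build GRCm38.p6, plus strand of chr6:129532942-129533191 and of chr8:111940453-111940702). Capitals mark ACGTG on either strand, a form of the core of the hypoxia response element, and CACGTG, the E-box bound by TFEB and TFE3. The other form of that core, GCGTG, was not searched or marked. Both read 5′ to 3′.
Gabarapl1: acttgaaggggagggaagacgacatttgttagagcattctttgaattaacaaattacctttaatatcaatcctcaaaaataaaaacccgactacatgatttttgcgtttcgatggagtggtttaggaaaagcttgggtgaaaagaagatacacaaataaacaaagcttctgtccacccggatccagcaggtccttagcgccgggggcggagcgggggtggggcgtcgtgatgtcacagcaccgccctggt
Gabarapl2: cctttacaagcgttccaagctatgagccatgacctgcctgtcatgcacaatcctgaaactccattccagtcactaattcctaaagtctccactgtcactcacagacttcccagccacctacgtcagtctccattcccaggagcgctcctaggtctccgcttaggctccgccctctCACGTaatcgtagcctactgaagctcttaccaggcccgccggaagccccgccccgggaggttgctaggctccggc
The window of Gabarapl2 holds 1 ACGTG, read on the other strand, and that of Gabarapl1 holds none. Windows were in the RefSeq table for 35 of the 42 members. Of the 42 windows of these members, 33 were followed by bases found in a GENCODE M21 transcript of the gene. CACGTG was in those of 4 members (11.4%), Atg3, Atg5, Atg7 and Bnip3, and in 6.9% of all genes with a window. The Atg7 window (chr6:114670846-114671095) lies inside the gene as annotated for the counts (chr6:114643097-114860614, plus strand), not at its annotated start. ACGTG, which CACGTG contains, was in those of 14 members (40%) and in 18.5% of all genes. The shares of all genes are over 27025 genes with a window, which were not matched to the members in expression or base content. The FoxO motif was searched only as GTAAACA, which was in none of the 35 on either strand and in 3.5% of all genes. Variants of it, such as the ATAAACA in the Gabarapl1 window, were not searched or marked. These are matches of letters and say nothing on binding.

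Atg10, the enzyme that joins ATG12 to ATG5, was higher in CD8 cells at week 1, with 6.64, 6.62, 5.39, 5.98 and 4.97 CPM against 3.94, 4.61, 4.55, 5.001 and 3.12 CPM in CD4 cells. The groups overlapped at 1 library each (log2 0.48, SE 0.14, adjusted p = 0.00986). Wipi1 was 2.29-fold higher in CD8 cells at week 1 (adjusted p = 0.00291), and in the long-term cells it had the other sign and did not pass (log2 -0.57, adjusted p = 0.13). Ulk2 (log2 0.22, adjusted p = 0.0369) was also higher at week 1, a call lost in 9 of 17 alternative settings, as was the mitophagy receptor Fundc1 (0.21, adjusted p = 0.0279).

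Optn encodes optineurin, a receptor for ubiquitinated mitochondria and bacteria. Its levels were low: 7.89, 6.59, 3.16, 4.10 and 3.66 CPM in CD8 week 4, against 1.34, 2.77, 0.81, 0.46 and 1.73 CPM in CD4 week 3. All CD8 libraries were above all CD4 libraries (3.56-fold, log2 1.83, SE 0.41, adjusted p = 0.0022), with week 4 replicates 1 and 2 the highest. At week 1 it was at 5.94 ± 1.14 against 2.27 ± 1.22 CPM, with overlap (log2 1.39, adjusted p = 0.0105).

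Among the members lower in CD8 cells, Tfeb (ENSMUSG00000023990, GRCm38 chr17:47737030-47792419, plus strand) held 21.5, 25.1, 20.99, 25.5 and 26.6 CPM in CD8 week 1, against 37.3, 32.2, 38.0, 40.4 and 38.7 CPM in CD4 week 1. The groups did not overlap (1.56-fold lower, log2 -0.64, SE 0.09, adjusted p = 4.56e-05). In the long-term cells it was at 24.7 ± 2.39 against 31.5 ± 2.83 CPM (log2 -0.35, adjusted p = 0.00738), and this call was lost without CD8 week 4 replicates 1 and 2. Tfe3 did not pass at either time (log2 -0.20 and -0.11, adjusted p = 0.145 and 0.43).

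Atg13 held 45.8, 45.4, 48.4, 50.7 and 47.8 CPM in CD8 week 1, against 92.9, 131, 72.0, 69.9 and 63.9 CPM in CD4 week 1. The CD4 libraries were spread widely, and all lay above the CD8 libraries (1.80-fold lower, log2 -0.85, SE 0.14, adjusted p = 0.000159). Rb1cc1 was at 58.5 ± 2.55 against 81.0 ± 8.37 CPM (log2 -0.47, adjusted p = 0.000727) and Wdr45 at 12.4, 13.6, 13.4, 13.4 and 12.4 CPM against 25.6, 24.1, 18.4, 17.6 and 16.96 CPM, without overlap (log2 -0.66, adjusted p = 0.00126). In CD8 week 4 and CD4 week 3, Rb1cc1 (log2 -0.27, adjusted p = 0.0336) and Atg13 (-0.39, adjusted p = 0.0395) still passed, each losing the call in 9 of 18 alternative settings, and Wdr45 did not (-0.20, adjusted p = 0.276).

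Tax1bp1 had the smallest adjusted p among the members lower in CD8 week 4. It measured 214, 204, 230.2, 217 and 210.5 CPM in CD8 week 4, against 281, 260.2, 286, 295 and 288 CPM in CD4 week 3. No library overlapped (log2 -0.39, SE 0.07, adjusted p = 0.000249), and at week 1 the log2 fold change was -0.01 (adjusted p = 0.935). Ulk1 was lower in both comparisons, with overlapping libraries in each. It was at 43.0 ± 3.16 against 56.3 ± 8.96 CPM in the long-term cells (adjusted p = 0.0168) and at 39.6 ± 5.38 against 51.0 ± 6.90 CPM at week 1 (adjusted p = 0.0199).

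Of the members, Bnip3 had the largest fold between the cell types in both comparisons, and the largest coefficient of variation in every group but CD8 week 1 (81.6% at week 4 of CD8 culture, and 108% at week 3 and 71.4% at week 1 of CD4 culture). In the CD8 week 1 libraries it was 20.2%, below that of 4 members, with Atg4c highest at 40.1%. It encodes a mitophagy receptor on the outer mitochondrial membrane and is a textbook target of the hypoxia factor HIF-1 (ENSMUSG00000078566, GRCm38 chr7:138890836-138909519, minus strand). At week 1 its CD8 libraries held 134, 162, 112, 188 and 177 CPM, against 31.5, 52.9, 10.7, 7.82 and 24.4 CPM in the CD4 libraries. All CD8 libraries lay above all CD4 libraries (6.07-fold, log2 2.60, SE 0.74, adjusted p = 0.00945).

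In the long-term cells Bnip3 held 194, 251, 95.8, 50.2 and 15.5 CPM in CD8 week 4, against 7.95, 61.2, 6.12, 5.60 and 30.8 CPM in CD4 week 3. The CD8 libraries were spread 16.2-fold and overlapped with the CD4 libraries. The log2 fold change of 2.44 (SE 0.73, adjusted p = 0.0156) was lost without CD8 week 4 replicate 2, and without replicates 1 and 2 it was 1.27 (adjusted p = 0.257). Neither culture comparison passed (log2 -0.35, adjusted p = 0.726, in CD8; -0.19, adjusted p = 0.877, in CD4). Within CD8 cells the 2 title ranges had opposite signs, 0.39 in range A (adjusted p = 0.51) and -2.49 in range B (adjusted p = 0.00756, or 0.145 with the CD4 libraries in the fit). Of the other mitophagy receptors, Bnip3l was at 148 ± 30.7 against 158 ± 36.6 CPM in CD8 and 144 ± 13.3 against 120 ± 19.1 CPM in CD4 cells, and Fundc1 stayed between 29.9 and 40.1 CPM in all 20 libraries.

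The promoter window of Bnip3 (RefSeq, GRCm38.p6, chr7:138909507-138909756, minus strand, written 5′ to 3′) is shown because the gene's level varied most of the members in all groups but CD8 week 1.
Bnip3: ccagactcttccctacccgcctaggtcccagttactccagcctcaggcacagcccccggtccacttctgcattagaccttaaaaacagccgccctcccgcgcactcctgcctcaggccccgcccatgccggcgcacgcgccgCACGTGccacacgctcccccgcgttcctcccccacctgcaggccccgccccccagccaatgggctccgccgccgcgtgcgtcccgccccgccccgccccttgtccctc
Its capitals are 1 CACGTG, whose first base lies at -108 from the start and which reads as ACGTG on both strands. The window also holds GCGTG, which was not searched or marked.

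The level of Bnip3 in a library went along with the mean level of 19 other HIF-1 target genes, a relation picked after the values had been seen. Over the 10 CD8 libraries, on the scale of log2(CPM + 0.5), Pearson's r was 0.922 and Spearman's rho 0.903 (permutation p = 0.00057 and 0.00099, adjusted over 2 relations 0.00057 and 0.00099). It was 0.707 without the 2 libraries farthest from the median of the target genes, and all 19 target genes had a positive r. Within title range A, with 6 libraries, r was 0.738 and rho 0.657, and the relation did not pass (permutation p = 0.10 for r), while the 4 libraries of range B are too few for a value. The CD4 libraries fell into 2 sets of 5, with target gene means of 5.43 to 5.60 and of 6.19 to 6.91, so no r is given. Bnip3 ran between 2.61 and 3.48 in the lower set and between 4.64 and 5.95 in the upper set. Each set held libraries of both weeks, and CD4 week 3 replicates 2 and 5 were the week 3 libraries of the upper one.

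**Figure D5:**
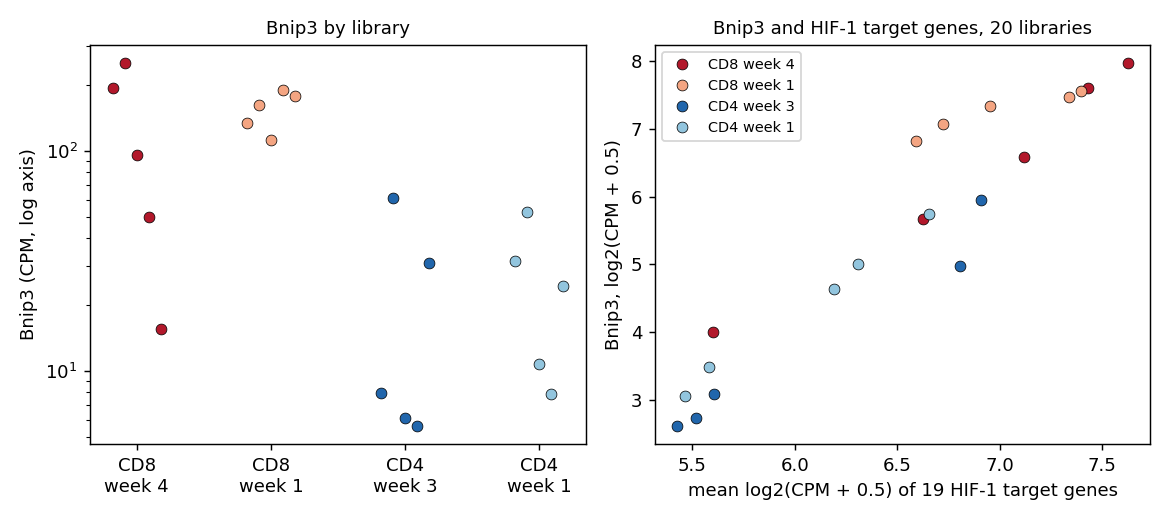
Left, CPM of Bnip3 (log axis) in each of the 5 libraries of the 4 groups, where CD8 week 4 runs between 15.5 and 251 CPM. Right, Bnip3 against the mean of 19 HIF-1 target genes in the 20 libraries, both as log2(CPM + 0.5), with 1 colour a group.

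The steps around the pathway were read from lists of other genes. For all genes tested, the shares were 17.1% higher and 16.4% lower at CD8 week 4. At CD4 week 3 they were 7.67% higher and 8.8% lower. Of 15 genes of autophagosome and lysosome fusion, 9 were higher and 1 lower at CD8 week 4 (median log2 0.25), and 1 was higher and 2 lower at CD4 week 3 (median 0.15). Tecpr1, a tethering factor, was at 521 ± 93.7 against 280 ± 70.8 CPM in CD8 cells (log2 0.90, adjusted p = 0.000444). Stx17, the SNARE of the autophagosome, was 1.37-fold higher (adjusted p = 0.00406), and Vps11, of the HOPS tether, 1.34-fold (adjusted p = 0.00422). In CD4 cells Vps39, also of HOPS, was higher (log2 0.32, adjusted p = 0.0118), and the SNARE genes Vamp8 (-0.38, adjusted p = 0.032) and Ykt6 (-0.25, adjusted p = 0.0368) were lower. In range A alone 0 fusion genes passed either way, where 1.85% of all genes were higher and 2.31% lower. In that fit 3 were higher at an unadjusted p under 0.05 in edgeR. With the CD4 libraries kept in, 1 passed, when 4.49% of all genes were higher and 3.39% lower.

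Of 42 lysosomal genes tested, 18 were higher and 2 lower at CD8 week 4 (median 0.15), and 4 were higher and 0 lower at CD4 week 3 (median 0.04; 8 and 3 at an unadjusted p under 0.05 in edgeR's quasi-likelihood test, 6 and 1 in DESeq2, 5 and 0 in limma-voom). The proton pump subunit Atp6v0b rose to 66.6 ± 3.67 against 49.4 ± 3.01 CPM (adjusted p = 0.000381), Sgsh, a heparan sulfate sulfatase, 2.03-fold (adjusted p = 0.00131) and the cathepsin gene Ctsf 3.95-fold at low levels (4.79 ± 1.45 against 1.22 ± 0.562 CPM, adjusted p = 0.00136). In CD4 cells the acid glucosidase Gaa was 1.5-fold higher (adjusted p = 0.0027), Sgsh 1.77-fold (adjusted p = 0.0114) and the cathepsin gene Ctsd 1.38-fold (adjusted p = 0.0219). In range A alone 0 of 41 passed either way (10 higher and 2 lower at an unadjusted p under 0.05 in edgeR), where 1.85% of all genes were higher and 2.31% lower. Without CD4 week 3 replicate 2 the CD4 counts were 9 and 3, where 12.5% of all genes were higher and 14.6% lower.

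A list of 39 genes covers nutrient sensing through mTORC1 and AMPK, which hold the ULK complex in check or activate it. Of these, 7 were higher and 3 lower at CD8 week 4, where 17.1% and 16.4% of all genes were. At CD4 week 3, 1 was higher and 3 lower, where 7.67% and 8.8% of all genes were. The list's median log2 fold change was 0.09 in CD8 cells (0.0293 for all genes) and 0.00287 in CD4 cells (0.00854 for all genes). Both Rptor, the raptor subunit of mTORC1 (1.6-fold, adjusted p = 7.7e-05), and Akt1s1, its inhibitor PRAS40 (1.51-fold, adjusted p = 0.000153), rose in CD8 cells. Tbc1d7, of the TSC complex that restrains mTORC1, fell in CD8 (log2 -0.96, adjusted p = 9.64e-05) and in CD4 cells (-0.60, adjusted p = 0.00808). In CD4 cells Lamtor1 (-0.19, adjusted p = 0.0251) and Depdc5 (-0.39, adjusted p = 0.0307) were lower as well.

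Of 16 FoxO genes and targets, with Foxo1, Foxo3 and Foxo4 among them, 8 were higher and 1 lower at CD8 week 4 (median 0.67). The shares of all genes were 17.1% higher and 16.4% lower there, and 7.67% and 8.8% at CD4 week 3. Foxo1 itself was at 227 ± 23.8 against 147 ± 18.4 CPM (adjusted p = 0.000186), the nuclear receptor coactivator gene Pnrc1 was 1.72-fold higher (adjusted p = 0.00134), and Il7r, the IL-7 receptor, was the gene that fell (log2 -2.59, adjusted p = 0.000578). At CD4 week 3 none of the 16 passed in edgeR (3 higher and 0 lower at an unadjusted p under 0.05, 1 and 0 in DESeq2, 0 and 0 in limma-voom). Of 12 NRF2 targets, genes of the oxidative stress response that p62 can release, 1 was higher and 4 lower at CD8 week 4. The list was drawn up with Nfe2l2, the gene of NRF2 itself, and Keap1 in it. Hmox1 was at 0.711 ± 0.318 against 2.72 ± 0.503 CPM (adjusted p = 0.000184), and Gclm (log2 -0.68, adjusted p = 0.00664) and Nqo1 (-1.58 at under 1 CPM, adjusted p = 0.0325) were lower too. At CD4 week 3 none of the 12 passed in edgeR, DESeq2 or limma-voom. At an unadjusted p under 0.05 there were 0 in edgeR, 2 higher in DESeq2 and 1 higher in limma-voom.

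Of 15 other genes of mitophagy and ER-phagy, 4 were higher and 1 lower at CD8 week 4, where 17.1% and 16.4% of all genes were. At CD4 week 3, 1 was higher and 1 lower, where 7.67% and 8.8% of all genes were. Rtn3, an ER-phagy receptor, was lower in both, at 188 ± 15.1 against 267 ± 24.7 CPM in CD8 (adjusted p = 0.00121) and 136 ± 22.9 against 183 ± 13.9 CPM in CD4 cells (adjusted p = 0.00867). The ER-phagy receptors Tex264 (log2 0.37, adjusted p = 0.00167) and Retreg3 (0.38, adjusted p = 0.00313) rose in CD8 cells, and the deubiquitinase Usp8 rose in CD4 cells (0.20, adjusted p = 0.0323). Of the 19 HIF-1 targets, 1 was higher in each cell type, Rora in CD8 (log2 1.24, adjusted p = 0.00613) and P4ha2 in CD4 cells (1.87, adjusted p = 0.0149). None was lower after adjustment in edgeR, DESeq2 or limma-voom, and none at an unadjusted p under 0.05 in edgeR. Within CD8 cells the median of these 19 was 0.36 in range A alone, with 3 higher and 0 lower, and -1.21 in range B alone, with 0 higher and 13 lower. All genes were 1.85% higher and 2.31% lower in range A alone, and 24.1% and 25.1% in range B alone. With the CD4 libraries in the fit, range A had 2 higher (4.49% of all genes) and range B 3 lower (9.04% of all genes).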

How the data were processed

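RNA was measured by polyA-selected, strand-specific sequencing of 20 libraries, 5 in each of the 4 groups. The deposited values are raw counts per gene, made by the authors with featureCounts 1.6.3 on exons, summed by gene and counting the reverse strand, per the file headers. The submitters' processing notes name STAR and the build mm10. Reads that hit several places or several genes were not counted, which lowers genes with shared exons or close copies.

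From these counts, 13290 of 49671 genes passed edgeR's filter on low counts (edgeR 4.0.16, R 4.3.3). One quasi-likelihood model of 4 group means with TMM factors gave every comparison, with Benjamini-Hochberg adjustment over all 13290 genes and a threshold of 0.05. CPM uses TMM-scaled library sizes, except for markers, which use library totals. TPM uses the exon lengths of the table, and an SE is the log2 fold change over the square root of F. The code was tested on simulated data. The members and lists were chosen with earlier results of these data known.

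Named by rule were the called members with the smallest adjusted p, up to 6 per direction in each culture comparison and up to 4 in the others, all ATG8 genes, Tfeb and Tfe3, and up to 3 called genes of each other list. Other genes named were picked after their values were seen. Alternatives were other scaling factors, DESeq2 1.42.0, limma-voom (limma 3.58.1), no filter or a stricter one, 1 cell type alone, title ranges and each library left out. Title ranges with the CD4 libraries in the fit were added after seeing the data. No 2 libraries of a group agreed within sampling noise. The p-values for correlations come from 100000 permutations in Python 3.11.15 with scipy 1.17.1. Another gene behind the sort is not reported here.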

Additional observations from a re-analysis of the deposited data

Results flagged for a closer look

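In 9 of 168 groups of 5 libraries, 1 library lay apart from the other 4 by Dixon's criterion, which chance gives in about 1 of 20 groups. Of these 9, 4 were in CD8 week 1 replicate 3. There Nbr1 was at 53.46 CPM (others 76.69 to 85.64), Ambra1 at 68.0 CPM (others 88.08 to 90.69), Atg16l1 at 69.94 CPM (others 45.01 to 51.1) and Gabarapl1 at 61.73 CPM (others 54.56 to 56.63). In CD4 week 3 replicate 2 there were 3: Sqstm1 at 138.0 CPM (others 183.5 to 201.7), Becn1 at 168.6 CPM (others 185 to 190.4) and Atg16l1 at 55.44 CPM (others 64.92 to 67.18). Ambra1 was at 115.1 CPM in CD4 week 3 replicate 5 (others 103.8 to 106.7), and Atg10 at 4.786 CPM in CD8 week 4 replicate 1 (others 5.485 to 5.632).

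Wipi1 had a different change in the 2 cell types by the interaction term of edgeR's quasi-likelihood model, at -1.759 on the log2 scale (SE 0.398, adjusted p = 0.047). The adjusted p ran between 0.00194 and 0.103 over its 27 alternatives, and the part of its low counts in this was not tested.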

How the results depend on the processing

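Over the alternatives, the 51 called log2 fold changes kept their side of the threshold in 815 values and lost it in 164, with 0 changes of sign. No scaling moved the median of all genes by over 0.1 on the log2 scale.

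The share of all genes called on the same side moved too, and it is given in brackets. For CD8 week 4 against week 1, the 12 members higher (17.1%) became 1 in range A alone (1.85%). They became 4 in range A with the CD4 libraries (4.49%) and 4 in range B with them (10.2%). The 1 lower (16.4%) became 0 (18.1%) with a filter of 5 CPM, which removed Wipi1. It became 2 with only CD8 libraries (17.1%), where Gabarapl1 was called lower too. In range A alone it became 0 (2.31%) and in range B alone 4 (25.1%). It was 0 in either range with the CD4 libraries (3.39% in A and 9.04% in B). For CD4 week 3 against week 1, the 2 higher (7.67%) became 5 in DESeq2 (9.81%) and 1 to 9 with 1 library left out (4.27% to 12.5%). The 1 lower (8.8%) became 2 in DESeq2 (11.3%), 0 with no filter (3.58%) and 0 with only CD4 libraries (4.45%). It became 0 to 1 with 1 library left out (3.84% to 14.6%). For the interaction, the 1 lower (0.406%) became 0 with upper-quartile factors (0.369%), 0 with library totals (0.361%) and 2 in DESeq2 (1.34%). It became 0 with no filter (0.141%), 0 with the filter of 5 CPM (0.486%) and 0 to 2 with 1 library left out (0.134% to 1.2%). For CD8 week 4 against CD4 week 3, the 5 higher (17.7%) became 3 without CD8 week 4 replicates 1 and 2 (10.1%). The 6 lower (15%) became 3 with no filter (7.13%), 1 without those 2 libraries (8.81%) and 2 to 8 with 1 library left out (11.3% to 18%). Fewer samples enter the range and left-out fits, and otherwise the cause was not tested. Both counts of CD8 against CD4 at week 1 stayed within 1.5 times.

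No paired analysis was run, because the labels give no replicate numbers and the groups share no title number. No label says that neighbouring title numbers mark a shared source. The replicate numbers used here follow the order of the titles within a group, and equal numbers are not known to be pairs. Depth limits Wipi1, Optn and Atg4c most, the lowest members.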
